A study of Mus musculus with 9 samples.

Results

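The interferon regulatory factors (IRFs) were examined in mouse bone marrow-derived macrophages, cells grown from BALB/c marrow in macrophage colony-stimulating factor (M-CSF). The members were the probe sets, groups of array probes read as 1 value, that the platform annotation assigned to a single gene among Irf1, Irf2, Irf3, Irf4, Irf5, Irf7, Irf8 and Irf9. This gave 14 of the 45037 probe sets tested and 8 of the 18193 genes. All groups came from mice of 8 to 10 weeks, with 7 days of culture and a last night in 1% serum. The 3 untreated arrays have no addition named in their labels. The 3 TNC + vehicle arrays came from cells held in 0.1% DMSO for 1 h and then given 2 µg/ml recombinant tenascin C (TNC), a glycoprotein of the extracellular matrix, for 6 h. The 3 TNC + TLR4i arrays differed in that the 1 h step used 3 µM TAK-242, which blocks signalling by Toll-like receptor 4 (TLR4). No array carried vehicle alone or inhibitor alone, so vehicle cannot be told apart from TNC in the first comparison, nor inhibitor from TNC in the last. Replicates are called biological, but separate mice are not stated, and p-values then measure only the spread between these arrays.

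IRFs are transcription factors that share an N-terminal DNA-binding domain built around conserved tryptophans and that recognise GAAA repeats in the promoters of interferon and interferon-stimulated genes. Irf3, Irf5 and Irf7 lie latent in the cytoplasm until kinases downstream of Toll-like receptors and nucleic acid sensors phosphorylate them, while Irf9 is the DNA-binding part of ISGF3, the complex that assembles when type I interferon binds its receptor. Irf1 is made on demand after interferon or inflammatory stimuli, Irf2 competes with it for the same sites, and Irf4 and Irf8 act with the myeloid and lymphoid factor PU.1. The arrays measured mRNA, so the phosphorylation that switches several of these proteins on was not seen.

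Values below are log2 RMA signals, on which a difference of 1 is a doubling. Signals of different probe sets are not comparable as amounts. The 9 macrophage markers, among them Csf1r and Adgre1, had medians of 12.64 to 12.79 in every array, against array medians of 6.72 to 6.74, while medians of the 8 B and plasma cell markers were 6.48 to 6.64 those of the 4 conventional dendritic cell markers 6.42 to 6.64 and those of the 5 plasmacytoid dendritic cell markers 6.69 to 7.04. Endothelial markers stood out in 1 array: 10 of 11 were higher in TNC + vehicle replicate 1 than in the other TNC + vehicle arrays, by a median of 0.70. Without this array the same number of IRF genes was called, 3 with TNC and 2 with the inhibitor against TNC, and 40 and 43 pathway genes in place of 40 and 40. The 8 neutrophil markers also varied within groups, with means of 6.96 to 7.50 in untreated, 7.01 to 7.37 in TNC + vehicle and 6.97 to 7.14 in TNC + TLR4i arrays, highest in untreated replicate 2, and the 5 T cell markers had medians of 6.33 to 6.58.

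With TNC, 2 IRF genes rose, 1 fell and 5 did not pass. Irf1 and Irf7 rose about equally, by 2.50- and 2.51-fold, and Irf4 fell, by a fitted 1.61-fold, from near the array median to below the level used to mark dim probe sets. A gene was called when limma gave an adjusted p under 0.05 and the change was at least 1.5-fold, using its brightest probe set. Over all genes, 3.74% were called higher and 4.05% lower. The median over the 8 IRF genes was 0.12, beside 0.01 over all genes. Counted by probe set, 3 of 14 were called, where 5.72% of all probe sets were. By the adjusted p alone, with no minimum change, 4 IRF genes were higher (Irf1, Irf2, Irf5 and Irf7) and 2 lower (Irf4 and Irf8), a rule that 28.1% of all genes passed in either direction.

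**Figure D1:**
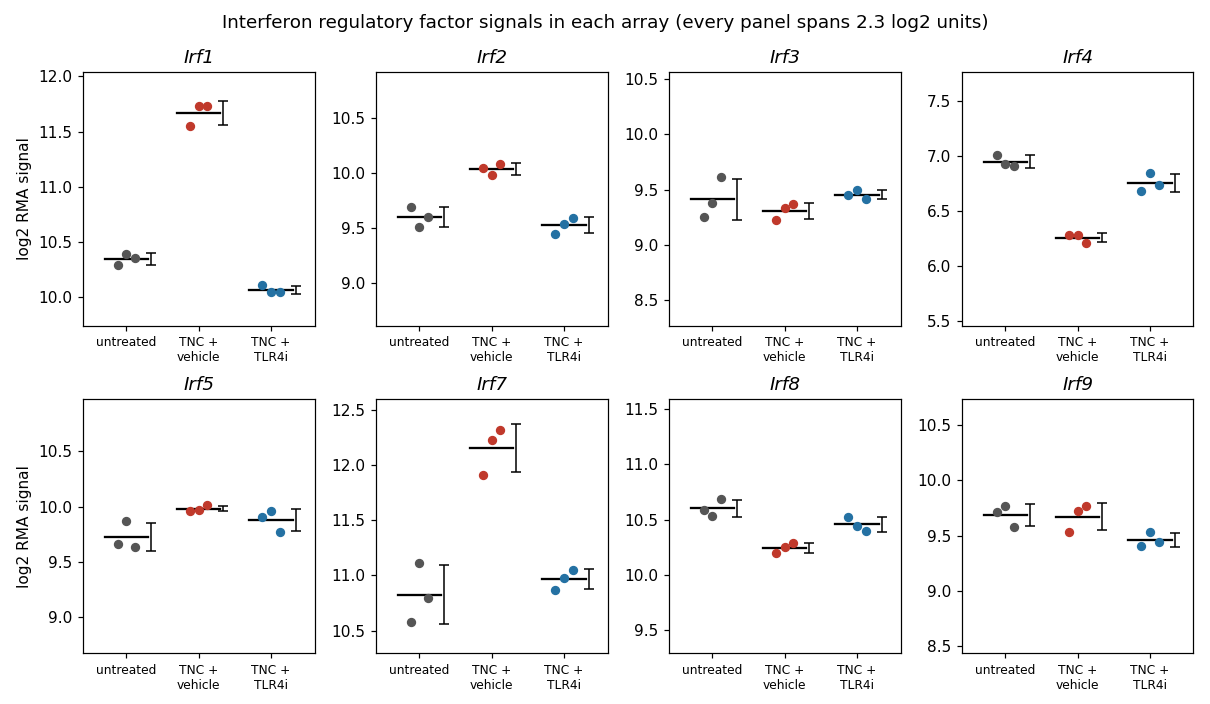
Log2 RMA signal of each IRF gene, read from its brightest probe set. Points are arrays, lines are means of the 3 arrays of a group and bars are the SD; the axes differ in position but not in span. Irf1 and Irf7 stand clear of the untreated arrays with TNC, at means of 11.67 and 12.15, while the groups of Irf3 and Irf9 overlap between untreated and TNC + vehicle.

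Irf1, an activator of interferon-stimulated and antigen presentation genes, had signals of 10.29, 10.39 and 10.35 in untreated arrays, 11.55, 11.73 and 11.74 in TNC + vehicle and 10.11, 10.05 and 10.05 in TNC + TLR4i. The 3 groups did not overlap, and their order was TNC + vehicle, untreated, TNC + TLR4i, the last pair without passing the test. The rise with TNC was 1.32 ± 0.07 (SE; limma adjusted p = 1.53e-07). With the inhibitor the difference was -1.60 ± 0.07 (adjusted p = 1.56e-08), 3.04-fold below TNC + vehicle. TNC + vehicle replicate 1, with the endothelial signal, was the lowest Irf1 value of its group, and without it the rise was 1.39.

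Irf7, the amplifier of type I interferon production that is itself interferon-inducible, was at 10.57, 11.11 and 10.80 in untreated, 11.91, 12.23 and 12.32 in TNC + vehicle and 10.87, 10.97 and 11.05 in TNC + TLR4i arrays. TNC + vehicle stood above both other groups, which overlapped each other. Its untreated arrays varied more than those of the other members, with an SD of 0.27 (n = 3). Irf7 rose by 1.33 ± 0.13 (SE; limma adjusted p = 1.71e-05) with TNC and fell by 1.19 ± 0.10 (adjusted p = 3.01e-06), or 2.28-fold, with the inhibitor. In TNC + vehicle replicate 1 it was 0.37 below the average of its replicates, and without that array its rise was 1.45. The highest untreated value came from replicate 2, which had the highest neutrophil marker mean, and without it the rise was 1.47. In TNC + vehicle, Irf7 and the neutrophil marker mean were both lowest in replicate 1. Otherwise the orders differed. The neutrophil mean was lowest in untreated replicate 3 and highest in TNC + vehicle replicate 2. Irf7 was lowest in untreated replicate 1 and highest in TNC + vehicle replicate 3. Every gene named below as called lower in TNC + TLR4i than in untreated had the untreated order of Irf7, with Ifit2 at 10.52, 11.59 and 11.28. The cause was not tested.

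Promoters of both rising genes are shown, with those of Irf2 and Irf8, because they differ in the motifs they hold. Irf1 and Irf8 have 2 annotated starts each, and the window of the first is shown. Each window runs from 250 bases before to 50 bases after an annotated start (RefSeq, GRCm38.p6), 5′ to 3′ on the gene's strand, and all 8 genes matched, with 11 windows. Capitals mark matches on either strand to 4 motifs: the IRF core AANNGAAA, the tandem IRF site GAAANNGAA, which can overlap it, the STAT site GAS (TTCNNNGAA) and the kappa B consensus bound by NF-kB.
Irf1, chr11:53769764-53770063, plus strand: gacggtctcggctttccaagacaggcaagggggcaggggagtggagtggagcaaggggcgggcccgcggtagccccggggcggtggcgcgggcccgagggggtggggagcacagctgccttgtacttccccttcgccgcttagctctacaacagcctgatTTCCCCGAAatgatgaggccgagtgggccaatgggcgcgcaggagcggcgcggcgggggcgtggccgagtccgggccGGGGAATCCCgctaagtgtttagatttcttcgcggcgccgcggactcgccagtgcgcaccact
Irf7, chr7:141266375-141266674, minus strand: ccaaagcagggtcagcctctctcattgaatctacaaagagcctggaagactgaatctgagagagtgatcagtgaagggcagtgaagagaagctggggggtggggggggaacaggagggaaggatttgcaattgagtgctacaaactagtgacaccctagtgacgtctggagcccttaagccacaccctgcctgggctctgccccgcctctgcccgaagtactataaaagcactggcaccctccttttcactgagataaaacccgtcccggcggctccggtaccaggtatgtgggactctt
Irf2, chr8:46739495-46739794, plus strand: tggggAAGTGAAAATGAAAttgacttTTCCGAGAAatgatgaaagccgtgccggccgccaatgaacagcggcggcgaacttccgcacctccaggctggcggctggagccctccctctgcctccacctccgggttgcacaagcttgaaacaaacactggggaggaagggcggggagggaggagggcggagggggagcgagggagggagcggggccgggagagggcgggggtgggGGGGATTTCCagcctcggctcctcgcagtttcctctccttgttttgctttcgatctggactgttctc
Irf8, chr8:120736108-120736407, plus strand: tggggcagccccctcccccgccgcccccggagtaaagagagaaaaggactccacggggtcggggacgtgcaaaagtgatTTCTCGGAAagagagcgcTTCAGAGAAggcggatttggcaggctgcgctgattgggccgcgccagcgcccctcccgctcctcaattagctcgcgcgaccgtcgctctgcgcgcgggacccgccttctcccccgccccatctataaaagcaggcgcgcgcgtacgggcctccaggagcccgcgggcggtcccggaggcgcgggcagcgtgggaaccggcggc

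The first Irf1 window held 1 GAS match, whose first base lay at -90 from the start, and 1 kappa B match at -13. The Irf7 window matched none of the 4 motifs. The Irf2 window held a GAS match at -224, a kappa B match at -17 and overlapping IRF core and tandem matches that began between -245 and -239, and the first Irf8 window held 2 GAS matches. The other 8 windows had none, among them that of Irf7 and the second windows of Irf1 and Irf8. Among 32817 promoter windows of this length, 23.9% held the IRF core, 8.55% the tandem site, 8.29% GAS and 8.46% kappa B, against 1, 1, 3 and 2 of the 11 IRF windows. A match describes letters in a window and is not evidence of binding. Only exact matches within these windows were searched, so no match is not evidence that a site is absent.

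**Figure D2:**
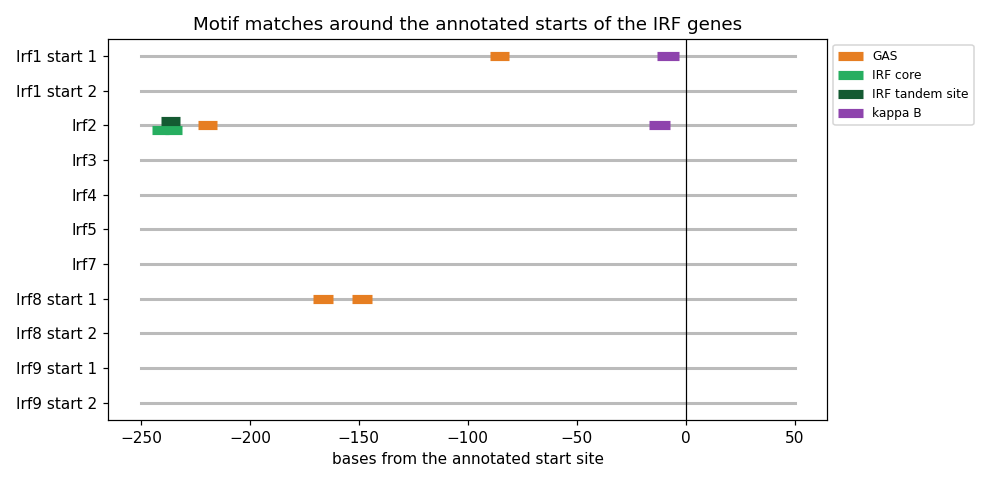
Positions of motif matches (coloured bars) in windows from 250 bases before to 50 after each annotated start of the IRF genes (grey lines), with the start at 0. Irf1, Irf2 and Irf8 each have a window with matches, with GAS at -90 in Irf1 and at -224 in Irf2, and 8 of 11 windows have none.

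Irf2, which occupies IRF sites without the strong activating domain of Irf1, moved in the direction of Irf1 but less. Its signals were 9.69, 9.51 and 9.60 in untreated, 10.05, 9.98 and 10.09 in TNC + vehicle and 9.45, 9.54 and 9.59 in TNC + TLR4i arrays. TNC + vehicle did not overlap either other group. The differences, 0.44 ± 0.07 (SE; limma adjusted p = 0.000769) with TNC and -0.51 ± 0.07 (adjusted p = 0.000163) with the inhibitor, stayed below 1.5-fold, and after cyclic loess the second was -0.59 and past it. The only probe set of Irf2 is of a type whose probes can be shared by transcripts of different genes.

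Among the IRFs that are activated by phosphorylation, Irf3 and Irf5 were not called in any comparison. Irf3, which TLR4 engages through TRIF, had 4 probe sets, and their differences with TNC ran from -0.11 to 0.06. Their 95% confidence intervals lay within -0.31 to 0.25. The brightest is of a type whose probes can match sequences of other genes. It read 9.25, 9.38 and 9.61 in untreated, 9.22, 9.33 and 9.37 in TNC + vehicle and 9.45, 9.50 and 9.41 in TNC + TLR4i arrays. The untreated arrays overlapped both other groups. The 95% confidence interval of its difference with TNC was -0.31 to 0.10, which leaves out a 1.5-fold change either way, and its adjusted p was 0.483. Without TNC + vehicle replicate 1 the difference was -0.06. With the inhibitor the difference was 0.15 (adjusted p = 0.161).

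Irf5, which drives inflammatory cytokine genes such as Il12b, was at 9.66, 9.87 and 9.63 in untreated, 9.96, 9.97 and 10.01 in TNC + vehicle and 9.91, 9.96 and 9.77 in TNC + TLR4i arrays. Every TNC + vehicle array was above every other array, by a small margin. The difference with TNC was 0.26 ± 0.08 (SE; limma adjusted p = 0.0273) on this probe set and 0.25 (adjusted p = 0.0204) on the other, both below 1.5-fold. Without TNC + vehicle replicate 2 or 3, or untreated replicate 1 or 3, the adjusted p of the first was 0.0571 to 0.114. With the inhibitor these probe sets differed from TNC + vehicle by -0.10 and -0.18 (adjusted p = 0.372 and 0.0857).

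Irf9 carries the DNA contact of ISGF3. It was at 9.71, 9.77 and 9.57 in untreated, 9.53, 9.72 and 9.76 in TNC + vehicle and 9.41, 9.53 and 9.44 in TNC + TLR4i arrays. Untreated and TNC + vehicle overlapped, with a difference of -0.01 and a 95% confidence interval of -0.19 to 0.17 (limma adjusted p = 0.946), and the sign turned to 0.04 after cyclic loess and to 0.06 without TNC + vehicle replicate 1. All TNC + TLR4i arrays lay below both other groups, by 0.21 against TNC + vehicle and 0.22 against untreated, and neither difference passed (adjusted p = 0.0762 and 0.35). The first passed the adjusted p alone after cyclic loess (-0.29, adjusted p = 0.0204) and without TNC + vehicle replicate 1 (-0.28, adjusted p = 0.0207), both below 1.5-fold. Over all settings its adjusted p ran from 0.0204 to 0.231.

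Irf4, which in macrophages is tied to alternative activation, was at 7.01, 6.92 and 6.91 in untreated, 6.28, 6.28 and 6.21 in TNC + vehicle and 6.68, 6.84 and 6.73 in TNC + TLR4i arrays. No group overlapped another, and the order was untreated, TNC + TLR4i, TNC + vehicle. It fell by 0.69 ± 0.07 (SE; limma adjusted p = 1.21e-05) with TNC, and with the inhibitor it was 0.49 ± 0.07 higher than with TNC (adjusted p = 0.000232), short of 1.5-fold. The mean of this probe set lay at percentile 47.4 of all probe sets, in a low range where changes can be understated. No detection call was used, so neither that nor unspecific signal was tested. Its TNC + vehicle mean of 6.26 was below 6.48, the level under which the 9-array means of 40% of probe sets lie. A dimmer Irf4 probe set, at percentile 31.3, differed by -0.14 (adjusted p = 0.235), and when both were averaged the difference was -0.41, so the call rests on 1 probe set.

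Irf8, which directs progenitors to the monocyte and macrophage lineage, was at 10.59, 10.54 and 10.69 in untreated, 10.20, 10.25 and 10.29 in TNC + vehicle and 10.53, 10.44 and 10.40 in TNC + TLR4i arrays on its brighter probe set. TNC + vehicle was below every other array. The difference with TNC was -0.36 ± 0.07 (SE; limma adjusted p = 0.00243), and -0.26 (adjusted p = 0.0329) on the other probe set. With the inhibitor the probe sets were 0.21 and 0.23 above TNC + vehicle (adjusted p = 0.0435 and 0.0469). None of these reached 1.5-fold. In RNA from a whole culture, fewer cells of a kind and less RNA per cell cannot be told apart.

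**Figure D3:**
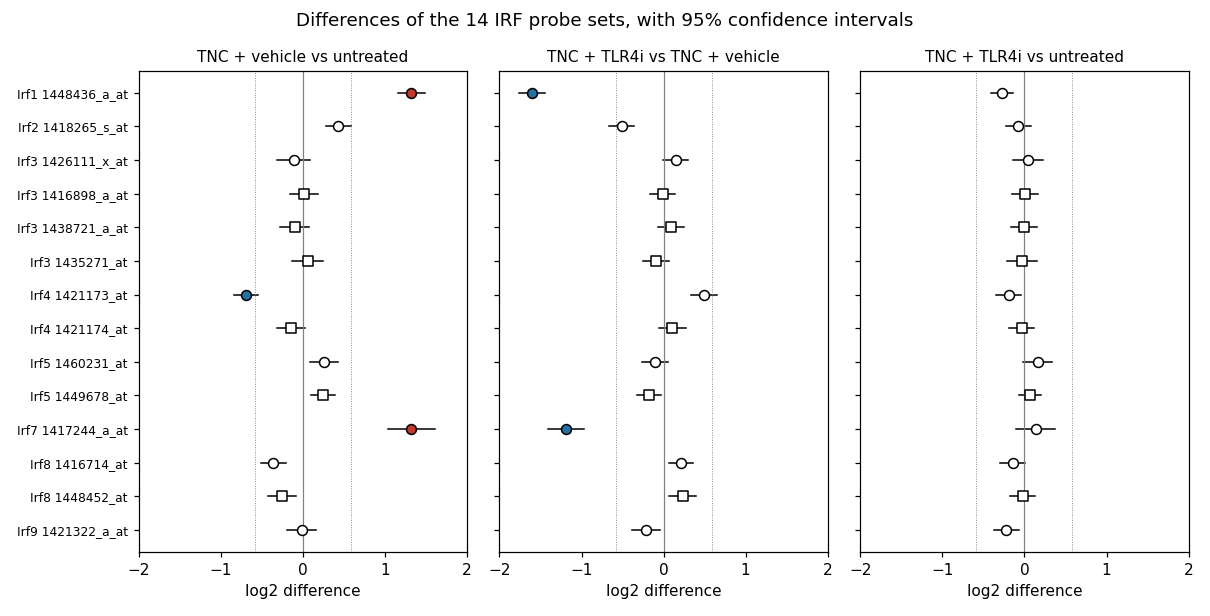
Log2 differences of the 14 IRF probe sets in the 3 comparisons, with 95% confidence intervals (lines); circles are the brightest probe set of a gene and squares the others, red and blue mark probe sets called higher and lower, white those not called, and dotted lines mark 1.5-fold. Irf1 and Irf7 lie at 1.32 and 1.33 with TNC and at -1.60 and -1.19 with the inhibitor, and no point is called in TNC + TLR4i against untreated.

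Against TNC + vehicle, the arrays of TNC + TLR4i addressed what the TLR4 inhibitor changed in cells given TNC. Irf1 and Irf7 fell, and the other 6 genes did not pass. Over all genes, 4.25% were called higher and 4.05% lower, and 2 of 14 IRF probe sets were called, where 6.06% of all probe sets were. The IRF median was -0.16, beside 0.00 over all genes. By the adjusted p alone, 3 IRF genes were lower (Irf1, Irf2 and Irf7) and 2 higher (Irf4 and Irf8), a rule passed by 28.5% of genes. Irf8 did not pass it with a replicate block (adjusted p = 0.0666), after cyclic loess (difference 0.11, adjusted p = 0.297) or with any 1 array left out (adjusted p = 0.0585 to 0.156). Both comparisons use the same TNC + vehicle arrays, so opposite signs in them are not independent.

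The third comparison set TNC + TLR4i against untreated arrays. limma called 0 of 8 IRF genes and 0 of 14 probe sets, where 0.0605% of all genes were called higher, 0.198% lower and 0.173% of probe sets in either direction. By the adjusted p alone the IRF count was also 0, with 0.803% over all genes. At an unadjusted p under 0.05, 3 of 8 IRF genes were lower and 0 higher, where 4.63% of all genes were lower and 4.83% higher. Irf1 was the nearest to a call, with a difference of -0.28 ± 0.06 (SE; adjusted p = 0.0936) and all 3 TNC + TLR4i arrays below all untreated arrays. Irf9 differed by -0.22 (adjusted p = 0.35) and Irf4 by -0.19 (adjusted p = 0.415), also without overlap. The brighter Irf8 probe set did not overlap either (-0.15, adjusted p = 0.617), while the other did. The share of all genes without overlap was not counted. For Irf7 the difference was 0.14, with a 95% confidence interval of -0.10 to 0.38 (adjusted p = 0.826).

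The genes around the IRFs were followed in 5 lists of 79 genes, of which 72 were measured. The others were not analysed here. Their counts stand beside shares of all genes of 3.74% called higher and 4.05% lower with TNC, and 4.25% higher and 4.05% lower with the inhibitor against TNC. Of 15 sensors, adaptors and kinases upstream of IRFs, 7 rose with TNC, led by the RNA sensor Ifih1 (1.94 ± 0.10 SE), the DNA sensor Cgas (1.40 ± 0.08), the kinase Irak2 (1.18 ± 0.08) and the TBK1-binding adaptor Tank (0.98 ± 0.07). The other kinases of this list are named here after their values were seen. Ikbke rose by 0.88 ± 0.07 and Tbk1 by 0.59 ± 0.07, the latter just past 1.5-fold. Ikbkb (0.13, limma adjusted p = 0.219) and Irak1 (-0.10, adjusted p = 0.375) were not called. With the inhibitor 6 of the 15 fell, among them Ifih1 (-2.49 ± 0.08) and Ikbke (-1.34 ± 0.09). Tbk1 differed by -0.57 and was short of 1.5-fold.

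Among 10 genes of interferons, their receptors and JAK-STAT signalling, 2 rose and 1 fell with TNC. Stat2, the ISGF3 partner of Irf9, rose from 8.98 ± 0.24 (SD, n = 3) to 10.90 ± 0.09 (n = 3), a difference of 1.91, where Irf9 differed by -0.01. The kinase Jak2 rose by 1.32 and the interferon gamma receptor chain Ifngr1 fell by 0.79. With the inhibitor Stat2 fell by 2.43 and Jak2 by 1.31, and Ifngr1 rose by 0.64. Interferon beta itself, named after its values were seen, was dim: Ifnb1 was at 6.37 in untreated and 6.55 in TNC + vehicle arrays (limma adjusted p = 0.0807). In TNC + TLR4i arrays it was at 6.31. Every TNC + vehicle array was above every array of the other groups, and Ifnb1 was not called in any comparison.

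Of 15 IRF partners and co-factors, 5 rose and 1 fell with TNC. The AP-1 family proteins Batf2 (1.41 ± 0.09 SE) and Batf (1.11 ± 0.08), which pair with IRFs on composite DNA sites, led them with the repressor Etv6 (1.01 ± 0.07) and Junb (0.76 ± 0.07). Other AP-1 family members, named after their values were seen, went the other way. Jun, the 1 that fell, was at 10.51 in untreated and 9.90 in TNC + vehicle arrays. Batf3, not called, was at 7.31 and 6.84. With the inhibitor 5 of the 15 fell, and the differences of Batf2 and Batf were -1.51 and -1.12. Spi1, which encodes PU.1, was 0.37 higher with TNC (adjusted p = 0.00103), below 1.5-fold, and is named after its values were seen.

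Of 11 genes that restrain IRF or interferon signalling, 5 rose with TNC and 6 fell with the inhibitor. Usp18, which blocks the interferon receptor, rose by 2.12 ± 0.13 (SE), the cytokine signalling inhibitor Socs3 by 1.77 ± 0.09, the ubiquitin-editing enzyme Tnfaip3 by 1.38 ± 0.07 and Trim21, a ubiquitin ligase that acts on IRF proteins, by 1.25 ± 0.09. In TNC + TLR4i Usp18 fell to 9.31 ± 0.23 (SD, n = 3), from 12.43 ± 0.14 with TNC and below the untreated 10.31 ± 0.31. It was the 1 gene of this list called in the third comparison (limma adjusted p = 0.00678).

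Known targets of IRFs and ISGF3 had the largest median of the 5 lists. With TNC 18 of 21 rose, 1 fell and 2 did not pass, at a median of 1.98 where the IRF genes had 0.12. The chemokines Ccl5 (4.89 ± 0.09 SE) and Cxcl10 (4.04 ± 0.17), the GTPase Gbp2 (3.57 ± 0.10) and the immunity-related GTPase Iigp1 (2.91 ± 0.12) rose most, and Ciita, the regulator of MHC class II that Irf1 can induce, fell by 1.87. With the inhibitor 19 of 21 fell, at a median of -2.17, and Ciita rose by 1.48. Against untreated arrays, 8 of the 21 were called lower in TNC + TLR4i and 0 higher, beside 0.198% and 0.0605% of all genes. At an unadjusted p under 0.05, 15 were lower and 0 higher, beside 4.63% and 4.83% of all genes.

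These 8 were Ifit2 (-1.33 ± 0.21 SE; limma adjusted p = 0.0142), Ifit1 (-1.32), Rsad2 (-1.24), Iigp1 (-1.14), Ifit3 (-1.09), Cxcl10 (-0.92), Mx1 (-0.85) and Oasl1 (-0.73), all interferon-stimulated genes. In the same arrays the 8 IRF genes differed from untreated by -0.28 to 0.16. The number of pathway genes called in the third comparison was sensitive to single arrays: 9 of 72 with all arrays, and 5 without TNC + TLR4i replicate 1, without TNC + TLR4i replicate 3 or without untreated replicate 3.

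**Figure D4:**
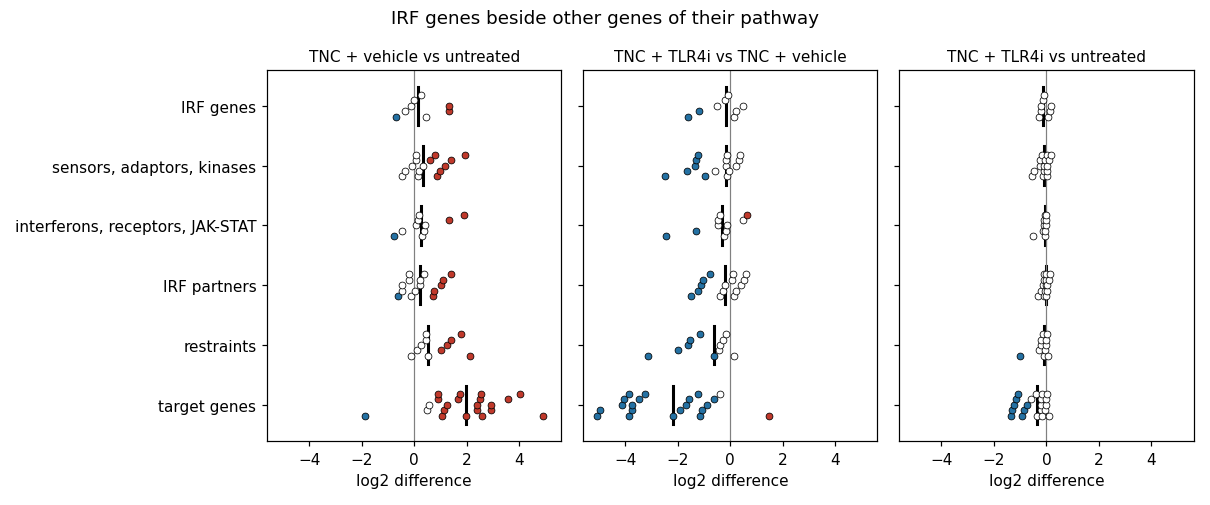
Log2 differences of single genes (points) in the IRF family and 5 pathway lists for the 3 comparisons, each gene by its brightest probe set, with the list median (bar); red and blue mark genes called higher and lower, white those not called. The target genes have the widest spread, with medians of 1.98, -2.17 and -0.34, beside 0.12, -0.16 and -0.11 for the IRF genes.

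The genes whose signal followed each called member most closely over the 9 arrays were found by Pearson correlation among 18184 other genes. For Irf1 they were Il15 (r = 0.9985), Sdc4 (0.9984) and Trim30d (0.9981), for Irf7 Erap1 (0.994), Ece2 (0.992) and Resf1 (0.992), and for Irf4 Zfp36l1 (0.992), Gatm (0.992) and Eps8 (0.991). Such values are not particular to these genes: 823 genes exceeded 0.95 with Irf1, 438 with Irf7 and 299 with Irf4, while 1 did with Irf5 and 0 with Irf3. Whether shared group means set them was not tested.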

How the data were processed

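RNA from 9 macrophage cultures was hybridised to Affymetrix mouse arrays. The authors used Chipster for robust multiarray averaging (RMA) of the raw data, and the deposited values are log2 signals, with 1 for every probe set on an array. This step corrects background, gives all arrays 1 distribution and summarises probes, so a change in total RNA is hidden and dim probe sets sit on a floor. Scan batches were not given in the sources used here, and no detection call was used.

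From 45101 probe sets, 64 array controls were left out. The platform annotation gave 34945 of the rest 1 gene, 932 several and 9160 none; symbols updated through gene identifiers changed in 0 cases. For a gene with several probe sets, the brightest by its average of the 9 arrays was read. Groups came from the treatment labels. As in the study's methods, each comparison was an empirical Bayes test on the 6 arrays of its groups (limma 3.58.1 under R 4.3.3, two-sided), adjusted over 45037 probe sets by Benjamini-Hochberg. Calls needed an adjusted p under 0.05 and 1.5-fold. The fit was tested on simulated data. The members, gene lists and tests were chosen with earlier results of these data known. All members were named, with up to 4 genes of each pathway list by size of change with TNC, those called in TNC + TLR4i against untreated, and the 3 genes most correlated with each called member; others are marked. The number of arrays limits the precision. Alternatives are given in the closing section.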

Additional observations from a re-analysis of the deposited data

How the results depend on the processing

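Each IRF gene's difference was recomputed under 16 alternatives: a shared fit, blocking on replicate number, dropping dim probe sets, centring, cyclic loess, a robust trended eBayes, averaging probe sets, other thresholds and leaving out each array. Irf1 and Irf7 kept their calls in both comparisons with TNC + vehicle, with rises of 1.29 to 1.40 and 1.20 to 1.47. Irf4 lost its call with TNC at a minimum of 2-fold and with averaged probe sets (-0.41). With no minimum fold, 6 IRF genes and 8 probe sets were called with TNC, and 5 genes and 6 probe sets with the inhibitor against TNC. Leaving out 1 array gave 3 and 2 IRF genes in these comparisons, and 0 in TNC + TLR4i against untreated. The adjusted p of Irf1 in that comparison ran from 0.0107 to 0.299, below 1.5-fold in each setting. Pathway genes called there, 9 of 72, numbered 3 with trend and robust settings, 5 at a minimum of 2-fold, 5 at an adjusted p under 0.01 and 5 to 12 with 1 array left out; the cause was not tested. Numbers were not taken as pairs because the study's methods name no pairing. Same-numbered arrays deviated with correlations of -0.10 to 0.14, which with 3 arrays per group cannot exclude it. With a replicate block, 3, 2 and 0 IRF genes were called in the 3 comparisons, and 1416, 1513 and 51 genes in all, beside 1416, 1510 and 47 without it. Cyclic loess moved the median of all genes by at most 0.01 in either direction, but some IRF genes moved more. With the inhibitor against TNC, Irf1 went from -1.60 to -1.70, Irf7 from -1.19 to -1.29 and Irf8 from 0.21 to 0.11. Irf4 stayed at 0.49.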
